A study of Glycine max with 72 samples.

Results

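The 5 transcription factor genes described here were proposed by the study as regulators of a gene network in soybean (Glycine max) seeds that carry mutations in 2 phytic acid transporters. They are 5 of the 56044 genes in the deposited count tables, and they were taken from the study's network by their gene identifiers. DREB1F (Glyma.01G216000) and ERF3 (Glyma.02G267400) belong to the ethylene response factor family, Glyma.05G032200 is MYB-related, GBF3 (Glyma.07G060400) is a bZIP factor and Glyma.10G065100 is a trihelix factor. The study placed them in the network after it had found them differentially expressed in the MRP libraries described below. Their counts of significant differences in those libraries are therefore a description and no independent evidence. All 5 genes passed the filter on low counts in each of the 3 sets of lines.

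Phytic acid is the main store of phosphorus in seeds, and it is made from myo-inositol by a pathway that starts with myo-inositol phosphate synthase. Multidrug resistance-associated protein (MRP) transporters of the ABC class are needed for its accumulation, so that mutations in either step give low phytic acid (lpa) seeds, which often emerge poorly. Germination starts from RNA stored in the dry seed, and transcription factors then take part in the change from stored to newly made transcripts as water is taken up. In Arabidopsis, GBF3 binds G-box elements and its gene responds to abscisic acid, the hormone that holds seeds dormant. ERF3 is a repressor of transcription in that species, and DREB1F belongs to the family that binds the drought and cold response element. Trihelix proteins bind GT-rich promoter elements.

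RNA was sequenced from seeds of 8 lines at 3 stages with 3 replicates of 10 seeds, which gives 72 libraries. Stage 1 was the mature dry seed, stage 2 the seed imbibed for 8 h, and stage 3 the seed with an emerged radicle. Dry seeds were ground whole, while seed coats and radicles were taken off at stages 2 and 3, so that the tissue also differs between stage 1 and the later stages. There were 3 lines with low phytic acid. Line 1mlpa carries mips1 in the synthase gene and was compared with its normal line 1MWT, which has no mutation (the Mips subset). Line 2mlpa carries mrp-l and mrp-n in both transporter genes and was compared with 2MWT (no mutation), 2MWT-L (mrp-n alone) and 2MWT-N (mrp-l alone), all with normal phytic acid (the MRP subset). Line 3mlpa carries all 3 mutations and was compared with 3MWT, which has none (the Mips-MRP subset). The Mips lines came from a different cross than the other lines, with 1 parent in common. The labels of the Mips samples could also be read as naming the parents, and they were taken here as the progeny lines. Each line is 1 genotype, so that a difference between lines belongs to the whole genotype and not only to the named mutation. The p-values measure the spread between samples of 10 seeds of a line.

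Of the 72 libraries, 71 held between 20295984 and 39759526 counts (median 28412327). The library of 2MWT-N at stage 2, replicate 1, held 12679 counts. It stayed in the fits but was left out of all levels, so that this group has 2 libraries. Levels are counts per 1000000 counts (CPM) on a trimmed mean of M-values (TMM) scale, and a gene was called when edgeR's quasi-likelihood test gave a false discovery rate (FDR, Benjamini-Hochberg over all genes tested) under 0.01 and the log2 fold change was over 1 in size. Seed storage protein genes were detected at every stage, with a summed level of 948 to 109492 CPM in dry seeds and 256 to 4760 CPM at stage 3. The mean level of the synthase gene MIPS1 in dry seeds was 728 CPM in 1mlpa and 126 CPM in 1MWT, and neither transporter gene was called in 2mlpa or 3mlpa at any stage. The counts do not tell mutant from normal transcripts, and they therefore do not check these genotypes. In such bulk samples, fewer cells that express a gene and less RNA of the gene per cell cannot be told apart.

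The 5 genes lie on 5 chromosomes of the Williams 82 assembly (Wm82.a2.v1). DREB1F spans positions 54666766 to 54676069 on the minus strand of chromosome 1. Its counted length of 9304 bases is a single piece, and it is the only such gene of over 9000 bases among all 56044 genes, whose median counted length is 1503 bases. It contains a shorter gene on the same strand, Glyma.01G216100 (54667100 to 54668417), which has 0 counts in all 72 libraries, as reads that overlap more than 1 gene were not counted. Reads from this shared stretch are thus missing from the DREB1F values. ERF3 lies on the minus strand of chromosome 2 (45177546 to 45178996) and the MYB-related gene on that of chromosome 5 (2802638 to 2804780). GBF3 lies on the minus strand of chromosome 7 (5358317 to 5363410). The trihelix gene lies on the plus strand of chromosome 10 (6219832 to 6224963).

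The regulators differed widely in level and in their course over germination. On the scale of CPM per kilobase of counted length, which allows levels to be compared between genes, the median of the 8 line means in dry seeds was 35.1 for GBF3, 28.8 for ERF3, 3.38 for the trihelix gene, 2.23 for the MYB-related gene and 0.037 for DREB1F. At stage 3 the order was led by the MYB-related gene (81.8), ahead of ERF3 (40.002), GBF3 (4.40), the trihelix gene (3.47) and DREB1F (0.0911). The MYB-related gene rose at both steps. In CPM, its libraries lay between 1.53 and 16.4 at stage 1, between 11.5 and 25.2 at stage 2 and between 69.8 and 224 at stage 3. GBF3 took the opposite course, with 47.5 to 122 CPM in dry seeds, 19.1 to 74.3 CPM after imbibition and 6.13 to 17.3 CPM at radicle emergence.

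DREB1F was transient. It had at most 18 counts in any dry seed library and 0 counts in 5 of them, peaked at stage 2, and declined again at stage 3. ERF3 had log2 changes above 0 in 7 of 8 lines from stage 1 to stage 2, of which 2 were called. From stage 2 to stage 3 its change was above 0 in 1 line, with 0 calls. The trihelix gene had no common course, with changes above 0 in 4 lines at each step. The libraries of ERF3 ranged from 13.3 to 111 CPM in dry seeds, and those of the trihelix gene stayed between 2.04 and 19.4 CPM over all stages.

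**Figure D1:**
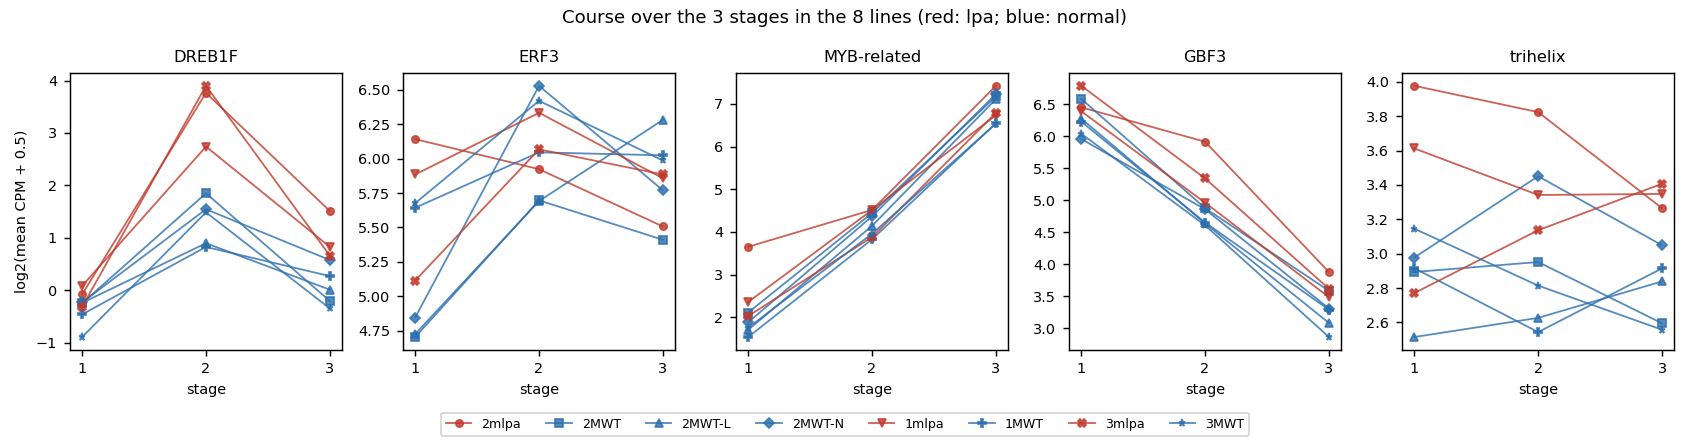
Mean level of each regulator (log2 of mean CPM plus 0.5) at stages 1, 2 and 3, with 1 line per soybean line (red for the 3 lpa lines, blue for the 5 normal lines). The MYB-related gene climbs and GBF3 declines from stage 1 to stage 3 in all 8 lines on this scale, while DREB1F peaks at stage 2. The decline of GBF3 from stage 1 to stage 2 is not seen when library totals alone are used for scaling.

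These courses were tested for each of the 8 lines and both steps. Of the 80 cases, 43 were called, with 22 at the earlier and 21 at the later step. Germination moved much of the transcriptome. From stage 1 to stage 2, 29.3%, 44.6%, 46.3% and 37.9% of all genes were called in 2mlpa, 2MWT, 2MWT-L and 2MWT-N, 43.7% and 46.8% in 1mlpa and 1MWT, and 31.3% and 38.6% in 3mlpa and 3MWT. From stage 2 to stage 3, the shares in the same order were 34.3%, 26.4%, 26.1%, 26.7%, 30%, 27%, 19.6% and 19.7%. The MYB-related gene was called higher in 7 lines at the earlier step and in all 8 lines at the later step (log2 fold changes of 2.25 to 3.00). The line without a call was 2mlpa, where the gene already stood high in dry seeds (0.92, FDR = 0.00677 in edgeR's test). GBF3 was called lower in 7 lines at the earlier step (-1.69 to -0.52 over the 8 lines) and in all 8 at the later one (-2.05 to -1.34), and the line without a call was again 2mlpa. DREB1F was called higher in 6 lines after imbibition and lower in 5 lines at radicle emergence. ERF3 was called higher in 2MWT (1.04) and 2MWT-N (1.67) at the earlier step, and the trihelix gene in no line at either step, with 0 of 16 cases.

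The scaling bears on the earlier step. The TMM factors had medians of 0.543, 1.24 and 1.59 at stages 1, 2 and 3. With library totals alone, the median log2 change of all genes from stage 1 to stage 2 was 0.98 to 1.82 instead of 0.11 to 0.34. On that scale GBF3 was called in 0 lines (-0.41 to 0.33), ERF3 was called higher in 7 lines and the trihelix gene in 4. The rise of the MYB-related gene at both steps, and the later decline of GBF3, were called in 8 lines on that scale as well.

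In dry seeds of 2mlpa, ERF3, the MYB-related gene and the trihelix gene were higher than in each of the 3 normal lines of the MRP subset, by 2.00- to 4.22-fold. DREB1F and GBF3 were not called. The 3 comparisons share the 2mlpa libraries. ERF3 had levels of 61.5, 111 and 38.1 CPM in 2mlpa replicates 1, 2 and 3. Its levels were 24.7, 29.5 and 22.4 CPM in 2MWT, 27.5, 22.4 and 28 CPM in 2MWT-L, and 22.8, 26.8 and 35.1 CPM in 2MWT-N. All 3 lpa libraries of ERF3 stood above all 9 normal libraries, although the lowest of them was close to the highest normal one. The log2 fold changes were 1.43 ± 0.29 (SE, n = 3, FDR = 0.00234) against 2MWT, 1.39 ± 0.29 (FDR = 0.00115) against 2MWT-L and 1.27 ± 0.29 (FDR = 0.0049) against 2MWT-N in edgeR, with FDR values adjusted by Benjamini-Hochberg.

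The MYB-related gene showed the widest gap. It had 16.4, 12.3 and 7.50 CPM in 2mlpa dry seeds, and between 1.71 and 4.74 CPM in the 9 normal libraries of the MRP subset. The 3 replicates were 4.05, 4.63 and 2.77 CPM in 2MWT, 2.91, 1.71 and 3.68 CPM in 2MWT-L, and 2.43, 2.39 and 4.74 CPM in 2MWT-N. The groups did not overlap, as was the case for all 3 of these genes, where 2.98% of all genes stood above every normal library in 2mlpa dry seeds. The log2 fold changes were 1.62 ± 0.31, 2.08 ± 0.32 and 1.87 ± 0.31 (SE, n = 3) against 2MWT, 2MWT-L and 2MWT-N, with edgeR FDR values of 0.00134, 4.75e-05 and 0.000192.

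The trihelix gene had 15.7, 19.4 and 10.7 CPM in 2mlpa dry seeds. It had 5.38, 10.2 and 5.22 CPM in 2MWT, 5.67, 4.47 and 5.51 CPM in 2MWT-L, and 9.03, 6.10 and 7.0 CPM in 2MWT-N. The lowest lpa library stood just above the highest normal one, so that the groups did not overlap. Against 2MWT-L it was 2.83-fold higher in 2mlpa (95% interval of the log2 fold change 1.03 to 1.97, edgeR FDR = 8.23e-05). The log2 fold changes were 1.10 ± 0.24 (SE, n = 3, edgeR FDR = 0.00365) against 2MWT and 1.00 ± 0.23 (FDR = 0.00601) against 2MWT-N, and the latter was at the edge of the fold criterion.

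**Figure D2:**
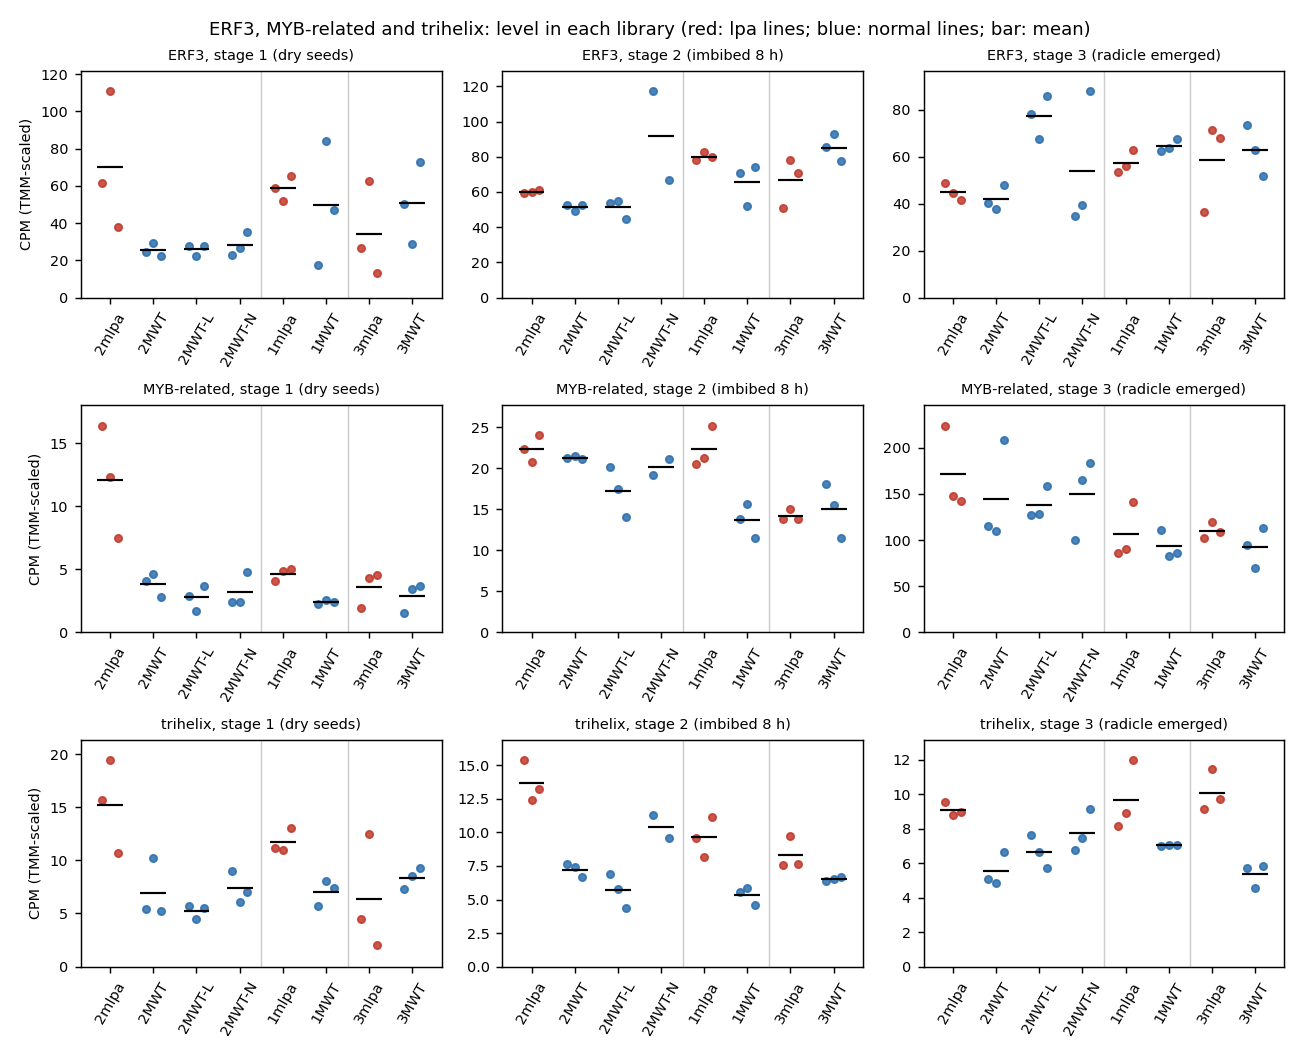
Levels (CPM, TMM-scaled, linear axes) of ERF3, the MYB-related gene and the trihelix gene in each library of the 8 lines at the 3 stages. Points are libraries (red for lpa, blue for normal lines), bars are group means, and grey lines part the MRP, Mips and Mips-MRP subsets. At stage 1 the 3 libraries of 2mlpa lie above all 9 normal libraries of the MRP subset for all 3 genes.

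Of the 5 regulators, 3 were thus called against all 3 normal lines in dry seeds, where 0.43% of all tested genes were called in this way (0.255% higher). In the single comparisons of dry seeds, 2.18% of genes were called against 2MWT, 7.11% against 2MWT-L and 2.27% against 2MWT-N. As the study chose the regulators on these libraries, nothing is read from the distance between these shares. The calls rested on few libraries. The number of regulators called against all 3 normal lines fell to 0 without 2MWT stage 1 replicate 3 or without 2mlpa stage 1 replicate 1. It fell to 1 without 2MWT stage 1 replicate 1, 2MWT-N stage 1 replicate 2 or 2mlpa stage 1 replicate 2, and it was 3 without the near-empty library. In fits of only the 6 libraries compared, it was 0 in dry seeds. There ERF3 (FDR = 0.0313), the MYB-related gene (FDR = 0.0213) and the trihelix gene (FDR = 0.0794) were not called against 2MWT, nor were ERF3 (FDR = 0.0243) and the trihelix gene (FDR = 0.0305) against 2MWT-N, although their log2 fold changes were 1.04 to 1.65 in these 5 cases. It was 2 with DESeq2 and with the replicate block, where the trihelix gene was not called, and 1 with library totals alone, where only the MYB-related gene was.

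Other stored RNA moved with the same dry seeds. The 5 seed storage protein genes summed to 36184 to 109492 CPM (TMM-scaled) in the 2mlpa dry seeds. In the 9 normal libraries they summed to 4126 to 19019 CPM, with no overlap. Most of the sum in 2mlpa was Glyma.03G163500 (mean 59249 CPM), ahead of Glyma.10G037100 (6386 CPM). The study lists Glyma.10G037100, Glyma.13G123500, Glyma.19G164900 and Glyma.20G148300 as putative targets in the MRP network. It chose them on these libraries, so that their difference here is no independent evidence. The 2 chlorophyll-binding protein genes taken as markers of green tissue summed to 12.5 to 26.7 CPM in 2mlpa and 8.28 to 22.6 CPM in the normal libraries. Genes that rose after imbibition in both 1MWT and 3MWT (6422 tested) had median log2 fold changes of 0.28, 0.57 and 0.10 in 2mlpa dry seeds against 2MWT, 2MWT-L and 2MWT-N, where all tested genes had medians of 0.02, 0.07 and 0.00. Genes that fell after imbibition in these lines (3616 tested) had medians of -0.31, -0.49 and -0.10. The part of these shifts in the values of the 3 regulators was not tested.

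After 8 h of imbibition DREB1F, GBF3 and the trihelix gene stood above all normal libraries in 2mlpa on the TMM scale. DREB1F was at 7.57, 16.2 and 15.5 CPM in 2mlpa. It was at 2.27, 4.47 and 2.57 CPM in 2MWT, 0.795, 1.93 and 1.37 CPM in 2MWT-L, and 2.04 and 2.79 CPM in 2MWT-N. All 3 lpa libraries were above all 8 normal libraries, a pattern that 9.22% of all genes showed at this stage. Its log2 fold change was 3.24 ± 0.69 (SE, n = 3, FDR = 0.00141) against 2MWT-L, which was called by edgeR. It was 2.05 ± 0.65 (FDR = 0.0599) against 2MWT and 2.43 ± 0.77 (FDR = 0.0949) against 2MWT-N, which were not, and the 95% intervals of these differences (0.78 to 3.32 and 0.93 to 3.94) show how wide the error of this low gene was. In fits of only the 6 libraries compared, both were called (FDR = 0.00127 and 2.81e-05).

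GBF3 had 74.3, 38.7 and 66.7 CPM in imbibed 2mlpa seeds. It had 34, 31.6 and 21.1 CPM in 2MWT, 28, 22.5 and 22.8 CPM in 2MWT-L, and 28.2 and 28.9 CPM in 2MWT-N. The lpa libraries were again all above the normal ones, with replicate 2 nearest to them. The log2 fold changes were 1.02 ± 0.24 (SE, n = 3, edgeR FDR = 0.00954), 1.27 ± 0.24 (FDR = 0.000451) and 1.07 ± 0.27 (FDR = 0.028) against the same 3 lines, of which the first 2 were called. The call against 2MWT lay at both thresholds: it was lost in 24 of 36 fits that left out 1 library, with DESeq2 and with the replicate block. It was also lost with filterByExpr, size factors, library totals alone, and upper-quartile factors without the near-empty library. The call against 2MWT-L was lost with library totals alone. In fits of the 6 libraries compared, GBF3 was called in all 3 comparisons (FDR = 0.00411 against 2MWT-N).

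The trihelix gene remained the highest in 2mlpa, with 15.4, 12.4 and 13.2 CPM after imbibition. It had 7.64, 7.40 and 6.66 CPM in 2MWT, 6.88, 5.75 and 4.40 CPM in 2MWT-L, and 11.3 and 9.55 CPM in 2MWT-N. On the TMM scale the lpa libraries did not overlap with the normal ones, but those of 2MWT-N came close. Per library total, 2mlpa replicate 3 (397 of 29931432 counts) stood below 2MWT-N replicate 2 (543 of 38055343 counts). The trihelix gene was called only against 2MWT-L (1.24 ± 0.23, SE, n = 3, edgeR FDR = 0.000416), with 0.89 (FDR = 0.0192) against 2MWT and 0.38 (FDR = 0.534) against 2MWT-N. With library totals alone, the call against 2MWT-L was lost (edgeR FDR = 0.0112). ERF3 had 59.2, 60.02 and 61.4 CPM in 2mlpa at this stage. These libraries stood above those of 2MWT (49.0 to 52.6 CPM) and 2MWT-L (44.9 to 54.8 CPM). They stood below those of 2MWT-N (66.5 and 117 CPM). The MYB-related gene had 22.4, 20.7 and 24 CPM in 2mlpa, above 2MWT-L (14.0 to 20.1 CPM). It overlapped with 2MWT (21.1 to 21.5 CPM) and 2MWT-N (19.1 and 21.1 CPM). The log2 fold changes of both genes were -0.59 to 0.36, and neither was called. The shares of all genes called at this stage were 1.24%, 6.24% and 0.698% against 2MWT, 2MWT-L and 2MWT-N, and 0 of 5 regulators were called against all 3 lines, as were 0.341% of all genes.

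**Figure D3:**
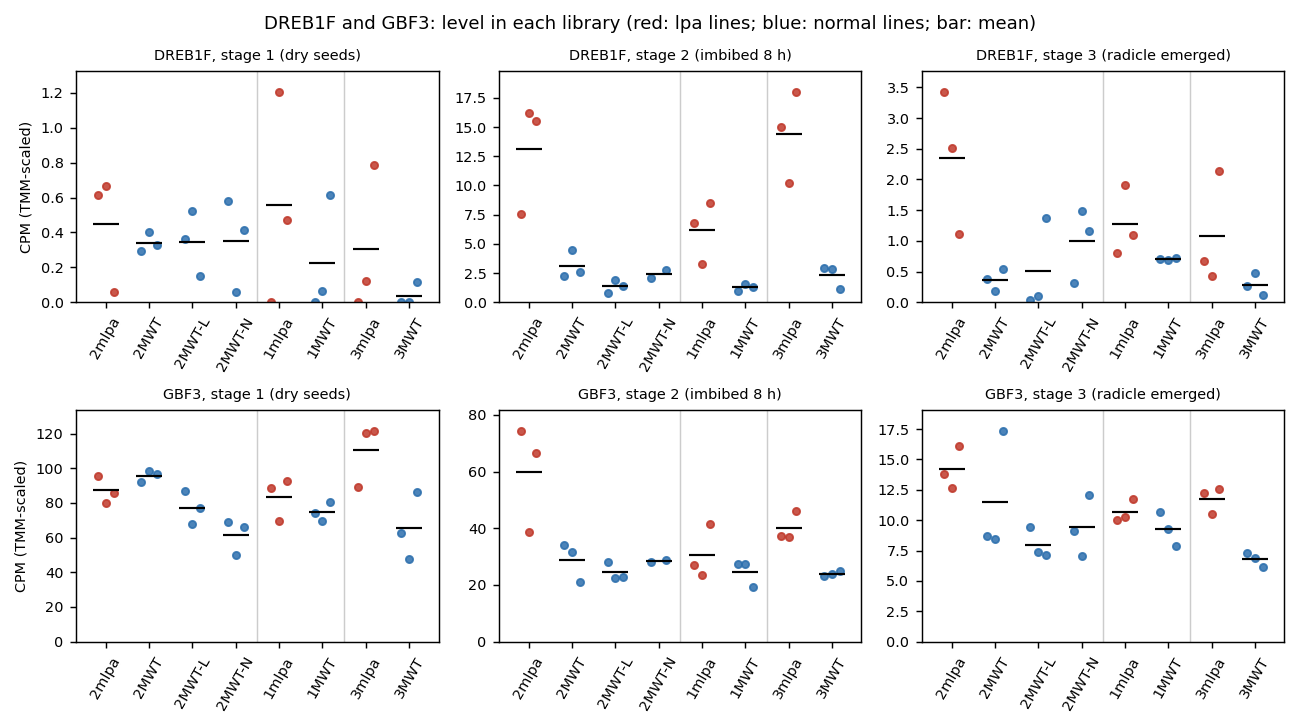
Levels (CPM, TMM-scaled, linear axes with a scale of their own in each panel) of DREB1F and GBF3 in each library of the 8 lines at the 3 stages. Points are libraries (red for lpa, blue for normal lines), bars are group means, and grey lines part the MRP, Mips and Mips-MRP subsets. At stage 2 all DREB1F libraries of the 3 lpa lines lie above all libraries of their normal lines.

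At radicle emergence no regulator was called in 2mlpa, where 1.98%, 2.11% and 0.504% of all genes were called against 2MWT, 2MWT-L and 2MWT-N. At an unadjusted p under 0.05, edgeR gave 2, 4 and 1 of the 5 genes, and DESeq2 called 0. Shares of all genes at this p or with DESeq2 are not given, here or below. Nothing is therefore read from such counts. DREB1F had 3.43, 2.51 and 1.11 CPM in 2mlpa and 0.0351 to 1.48 CPM in the normal libraries, so that the groups overlapped in the lowest lpa library. For 0 of the 5 regulators did 2mlpa stand above all normal libraries at this stage, as 2.59% of all genes did. Its log2 fold changes were 2.63 ± 0.71 (SE, n = 3, edgeR FDR = 0.0199) against 2MWT, 2.23 ± 0.69 (FDR = 0.0388) against 2MWT-L and 1.24 ± 0.66 (FDR = 0.513) against 2MWT-N. GBF3 had 13.8, 12.7 and 16.1 CPM in 2mlpa, and a single 2MWT library (17.3 CPM) stood above all of them. The MYB-related gene, at 224, 148 and 142 CPM, was within the range of the normal lines (99.95 to 208 CPM).

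The normal lines with 1 transporter mutation allow the effect of each mutation alone to be asked. The study kept genes in which 2mlpa differed from each of the 3 normal lines. These libraries thus took part in the choice, and the counts below are a description and no independent evidence. In 2MWT-L (mrp-n alone) against 2MWT, 0 of 5 regulators were called at any stage, where 0.635%, 0.201% and 0.555% of all genes were called at stages 1, 2 and 3. In 2MWT-N (mrp-l alone), there were likewise 0 calls, with 1.45%, 0.115% and 0.214% of all genes. DESeq2 called 0 in all 6 comparisons, and edgeR gave 0, 0 and 2 genes at an unadjusted p under 0.05 for 2MWT-L and 1, 1 and 1 for 2MWT-N. For the 3 dry-seed genes the 95% intervals of the log2 fold change were -0.52 to 0.61 (ERF3), -1.11 to 0.20 (MYB-related) and -0.88 to 0.08 (trihelix) in 2MWT-L, and -0.40 to 0.72, -0.88 to 0.38 and -0.37 to 0.57 in 2MWT-N. Among the larger estimates were ERF3 in 2MWT-L at stage 3 (0.88, edgeR FDR = 0.0781) and in 2MWT-N at stage 2 (0.79, FDR = 1.00, with 2 full libraries and the near-empty one).

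Whether 2mlpa differed by more than the sum of the effects of its mutations was tested as an interaction. This contrast reuses the libraries on which the study chose the genes, so that it is a description and no independent evidence. In dry seeds, the MYB-related gene exceeded that sum by 2.33 ± 0.45 (SE, edgeR FDR = 0.00121) and the trihelix gene by 1.40 ± 0.34 (FDR = 0.00698) on the log2 scale, where 3.77% of all genes were called. ERF3 had an excess of 1.23 ± 0.41 (FDR = 0.0453), which was not called. After imbibition the excess was 3.62 ± 1.01 (FDR = 0.039) for DREB1F and 1.31 ± 0.35 (FDR = 0.0345) for GBF3, and 0 regulators were called, as were 0.829% of all genes. At radicle emergence there were also 0 calls, where 0.542% of genes passed. The excess of the MYB-related gene was called in all 36 fits that left out 1 library, while that of the trihelix gene was lost in 8 of them and with DESeq2 (edgeR FDR up to 0.0459 in the 36 fits).

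The effect in 2mlpa also changed between stages. In this line the contrast again reuses the libraries on which the study chose the genes, so that it is no independent evidence. From dry to imbibed seeds, with the 3 normal lines averaged, the log2 difference between 2mlpa and the normal lines fell by 1.42 for ERF3 (edgeR FDR = 0.00931) and by 1.67 for the MYB-related gene (FDR = 0.00314), where 1.47% of all genes were called. For GBF3 the change was 0.97 (FDR = 0.0275), which was not called. The call of ERF3 was lost in 24 of 36 fits without 1 library, and that of the MYB-related gene in 5, all without a library of 2mlpa. From stage 2 to stage 3, 0 regulators were called, as were 0.191% of all genes (0 at an unadjusted p under 0.05, 0 with DESeq2). In 1mlpa 0 regulators were called at either step, where 0.619% and 0.123% of genes were. In 3mlpa there were likewise 0, where 0.0192% and 0.141% of genes were called. In these 4 cases too, 0 regulators had an unadjusted p under 0.05 and DESeq2 called 0.

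The Mips and Mips-MRP subsets were not used by the study to choose these 5 genes for the MRP network, except that DREB1F was a regulator in its networks of both other subsets as well. The values of DREB1F there are thus a description and no independent evidence. In 1mlpa, which has the synthase mutation and normal transporters, 0 of 5 regulators were called against 1MWT at each stage, where 8.37%, 3.55% and 4.85% of all genes were. At an unadjusted p under 0.05 there were 2, 3 and 1, and DESeq2 called 0, 1 and 0, without a share of all genes at these criteria. DREB1F came closest. It had 6.76, 3.28 and 8.50 CPM in imbibed 1mlpa seeds and 0.945, 1.59 and 1.28 CPM in 1MWT, which did not overlap. The log2 fold change was 2.28 ± 0.55 (SE, n = 3, edgeR FDR = 0.0104), just over the FDR threshold, and DESeq2 called it.

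The MYB-related gene had 4.05, 4.82 and 5.01 CPM in 1mlpa dry seeds and 2.25, 2.55 and 2.41 CPM in 1MWT. Its log2 fold change of 0.91 ± 0.24 (SE, n = 3, edgeR FDR = 0.00989) passed the FDR but not the fold criterion. The trihelix gene had 11.1, 11 and 13.1 CPM in these dry seeds against 5.67, 8.04 and 7.43 CPM (0.69 ± 0.20, FDR = 0.0169). After imbibition it had 9.59, 8.20 and 11.1 CPM against 5.58, 5.83 and 4.59 CPM (0.87 ± 0.19, FDR = 0.00636, again short of the fold criterion). Neither gene overlapped between the lines at stages 1 and 2, where 16.9% and 17.9% of genes stood above every 1MWT library. ERF3 in 1mlpa dry seeds (59.0, 51.7 and 65.1 CPM) was within the range of 1MWT (17.3, 84.1 and 47.0 CPM), and GBF3 had log2 fold changes of 0.13, 0.33 and 0.21 at stages 1, 2 and 3. At stage 3, DREB1F and the trihelix gene (8.15, 8.92 and 12 CPM against 6.99, 7.08 and 7.05 CPM) stood above every 1MWT library, as did 22.3% of genes.

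In 3mlpa, with all 3 mutations, 0 of 5 regulators were called against 3MWT at each stage, where 3.95%, 0.795% and 3.64% of all genes were. There were 1, 2 and 3 at an unadjusted p under 0.05, and DESeq2 called 0, 1 and 0, again without a share of all genes. DREB1F had 15, 10.2 and 18 CPM in imbibed 3mlpa seeds and 2.91, 2.82 and 1.17 CPM in 3MWT, with no overlap. Its log2 fold change was 2.65 ± 0.61 (SE, n = 3, edgeR FDR = 0.028), and DESeq2 called it. In dry seeds DREB1F had 0, 2 and 5 counts in 3mlpa and 0, 0 and 2 in 3MWT, which is too few for a fold change.

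GBF3 was higher in 3mlpa by a similar amount at each stage, at 89.2, 120.2 and 122 CPM against 62.4, 47.5 and 86.4 CPM in dry seeds. At stage 2 it had 37.4, 36.9 and 46.0 CPM against 23, 23.9 and 24.8 CPM, and at stage 3 it had 12.2, 10.5 and 12.5 CPM against 7.30, 6.89 and 6.13 CPM. The groups overlapped at no stage. The log2 fold changes were 0.75 ± 0.21, 0.75 ± 0.21 and 0.80 ± 0.21 (SE, n = 3), with edgeR FDR values of 0.0254, 0.0862 and 0.0257, and thus none was called. In 3mlpa, 10.6%, 20.3% and 17.8% of genes stood above every 3MWT library at stages 1, 2 and 3.

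The 3 genes that were higher in dry seeds of 2mlpa did not show that pattern in 3mlpa, which carries the same transporter mutations. ERF3 had 26.7, 62.4 and 13.3 CPM in 3mlpa and 50.1, 28.8 and 73.1 CPM in 3MWT. The MYB-related gene had 1.93, 4.26 and 4.55 CPM against 1.53, 3.45 and 3.64 CPM. The trihelix gene had 4.46, 12.5 and 2.04 CPM against 7.28, 8.51 and 9.25 CPM. Lpa and normal libraries overlapped for all 3 genes, and the log2 fold changes were -0.56 (95% interval -1.37 to 0.26), 0.27 (-0.39 to 0.93) and -0.35 (-1.09 to 0.40). The 3 dry-seed replicates of 3mlpa had the lowest agreement of all 24 groups (lowest correlation over genes 0.869), and without replicate 2 the trihelix gene was called lower in 3mlpa. The difference between 2mlpa and 3mlpa was not tested, as the subsets were counted in separate tables.

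**Figure D4:**
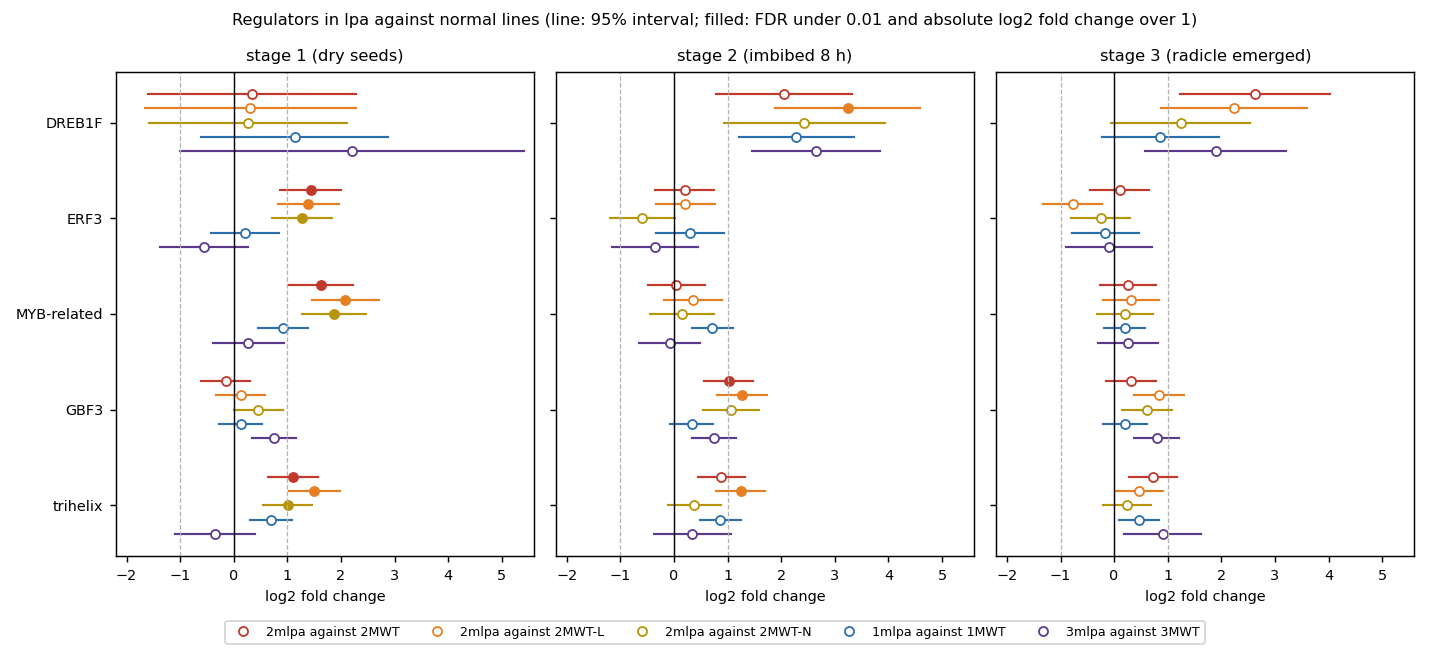
Log2 fold change of each regulator in 2mlpa against its 3 normal lines, 1mlpa against 1MWT and 3mlpa against 3MWT at the 3 stages. Points are edgeR estimates, lines are 95% intervals (1.96 SE), filled points passed the FDR of 0.01 and the log2 fold change of 1, and dashed lines mark that fold. ERF3, the MYB-related gene and the trihelix gene are filled in all 3 comparisons of 2mlpa at stage 1 only, and DREB1F lies above 0 in all 5 comparisons at stage 2.

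DREB1F and the trihelix gene thus shared a pattern in imbibed seeds over the subsets. On the TMM scale, every library of each lpa line stood above every library of its own normal lines for both genes at stage 2, where 2.71% of the genes tested in all 3 subsets did so. GBF3 did so in 2mlpa and 3mlpa. Per library total, the trihelix libraries of 2mlpa and 2MWT-N overlapped. The means of DREB1F were 14.4 ± 3.92 CPM (SD, n = 3) in 3mlpa, 13.1 ± 4.80 in 2mlpa and 6.18 ± 2.66 in 1mlpa, followed by 3.10 ± 1.19 in 2MWT, 2.42 ± 0.531 (n = 2) in 2MWT-N, 2.30 ± 0.983 in 3MWT, 1.36 ± 0.565 in 2MWT-L and 1.27 ± 0.321 in 1MWT. Neighbours in this order differed by less than their SD at most steps, and by more only between 2mlpa, 1mlpa and 2MWT. The effect in 1mlpa was also compared with that in 3mlpa in a joint fit. There were 0 calls among the 5 genes at each stage, where 5.12%, 0.481% and 0.266% of all genes were called (1, 1 and 0 at an unadjusted p under 0.05, and 0 with DESeq2). The largest estimate with a p under 0.05 was that of the trihelix gene in dry seeds (1.06 ± 0.43, edgeR FDR = 0.0973).

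The regulators were linked by the study to putative target genes, and the list used here holds 192 pairs of regulator and target with 157 targets. It is longer than the network described in the study's text, and why was not settled, so that all counts of targets hold for this list. Of the targets, 3 are regulators themselves and were left out, which leaves 154. The study chose the targets among genes that differed in the MRP libraries, so that counts of them there are no independent evidence. Of the 154 targets, 29 were called higher and 6 lower against all 3 normal lines in 2mlpa dry seeds, where 0.255% and 0.175% of all genes were. At stage 2 there were 18 higher and 17 lower (0.137% and 0.204% of all genes), and at stage 3 there were 9 and 6 (0.0797% and 0.0957%).

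The study linked regulators to modules of genes clustered on expression in these libraries, and then took the genes of a module as possible targets. A shared direction among the targets of a regulator can therefore follow from how the list was built. The targets moved differently by regulator. Targets of GBF3 were called higher only: 6, 10 and 2 of 36 rose against all 3 normal lines at stages 1, 2 and 3, and 0 fell. Of the 29 targets of DREB1F, 6 were called higher and 1 lower in dry seeds, and 1 higher and 7 lower in imbibed seeds, where DREB1F itself was at its highest. The others were not called against all 3 lines. Targets of ERF3 (11 higher and 3 lower of 41 in dry seeds, 4 and 9 after imbibition) and of the MYB-related gene (10 and 6 of 69, then 5 and 10) went both ways. Of the 13 targets of the trihelix gene, 5 were higher in dry seeds and 0 lower, with 0 higher and 1 lower after imbibition.

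The targets were also read in the subsets that had not been used to choose them. Of the GBF3 targets, 35 were tested in 1mlpa, and 9, 12 and 12 were called higher and 0 lower at stages 1, 2 and 3. In this line 4.34%, 1.98% and 4.21% of all genes were called higher and 4.03%, 1.57% and 0.641% lower. The median log2 fold changes of these targets were 0.69, 0.85 and 0.90, although GBF3 itself was not called in 1mlpa. In 3mlpa, 2, 2 and 8 of 36 GBF3 targets were called higher and 0 lower, with medians of 0.24, 0.59 and 0.76, where 2.79%, 0.371% and 2.89% of all genes were called higher and 1.17%, 0.425% and 0.754% lower. In 2mlpa after imbibition the medians were 1.28, 1.56 and 1.41 against 2MWT, 2MWT-L and 2MWT-N.

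The targets of the other regulators were less uniform outside the MRP subset. Those of DREB1F were called higher in 4, 4 and 7 cases and lower in 3, 1 and 0 of 27 in 1mlpa, with medians of -0.02, 0.09 and 0.29. The trihelix targets had medians in 2mlpa dry seeds of 1.73 against 2MWT-L and 1.53 against 2MWT-N, and 10 of 13 were called higher and 2 lower against 2MWT. Their medians were 0.13 in 1mlpa (4 of 12 higher) and 0.02 in 3mlpa dry seeds (0 of 13 called). The targets of the MYB-related gene were called in both directions in both lines (10 higher and 5 lower of 66 in 1mlpa dry seeds, 9 and 2 of 67 in 3mlpa dry seeds).

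**Figure D5:**
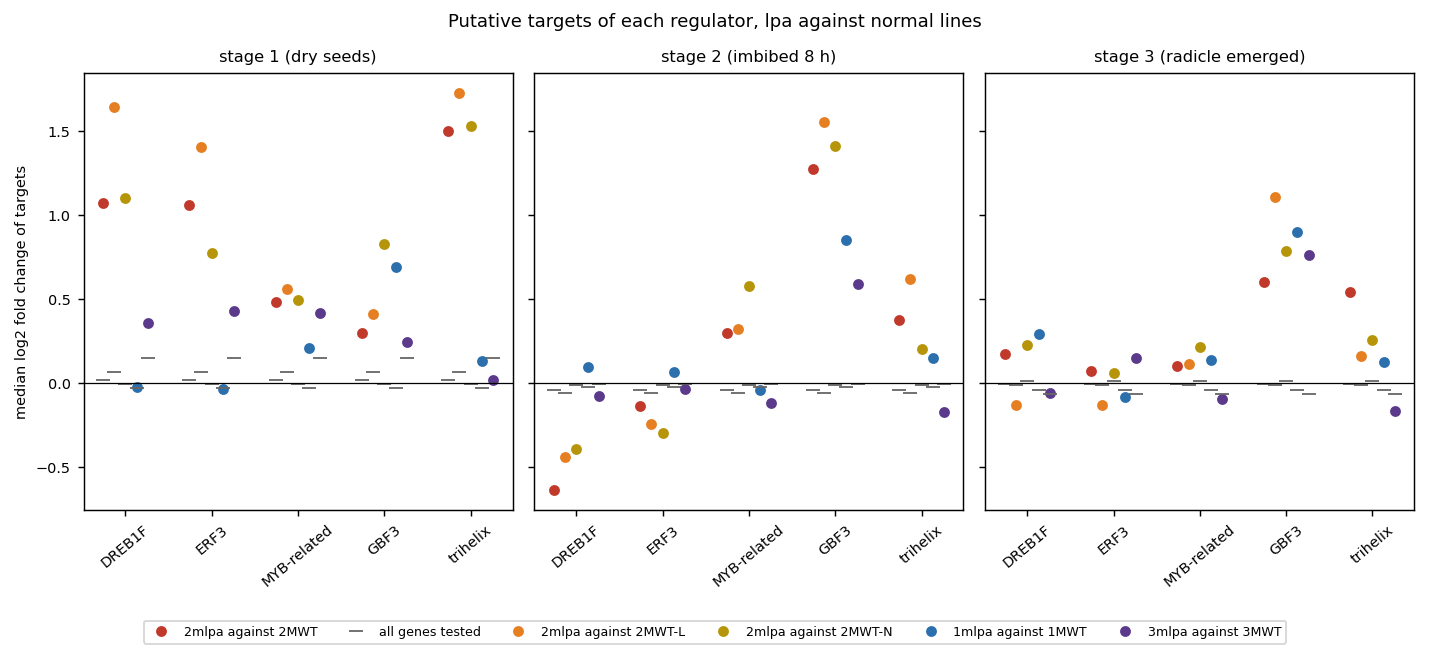
Median log2 fold change of the putative targets of each regulator (other regulators left out) in the 5 comparisons of lpa with normal lines at each stage. Coloured points are medians over the tested targets, and short grey bars are the medians over all genes tested. The GBF3 targets lie above 0 in all 15 comparisons, and the trihelix targets are high in 2mlpa at stage 1 but near 0 in 1mlpa and 3mlpa there.

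Across the 12 groups of the Mips and Mips-MRP subsets, the log2 level of GBF3 had a median correlation (Pearson's r) of 0.95 with its targets, and 34 of 35 were above 0, while the median with all other genes was -0.36. These groups differ mainly in stage, and genes of a shared course over germination will correlate for that reason alone. For the other regulators the medians with targets and with all genes were 0.41 and 0.11 (DREB1F), 0.41 and 0.23 (ERF3), 0.15 and 0.36 (MYB-related), and -0.04 and -0.02 (trihelix). Among the regulators themselves, over all 24 groups, r was -0.92 between the MYB-related gene and GBF3 and between -0.47 and 0.47 for the 9 other pairs.

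The seed storage protein genes are among the targets of GBF3 and of the MYB-related gene. The vicilin-like gene Glyma.20G148300, a target of the MYB-related gene, was higher in 2mlpa dry seeds by 3.24, 4.32 and 2.71 on the log2 scale against 2MWT, 2MWT-L and 2MWT-N, and all 3 were called. Of 4 genes for 12S storage proteins, Glyma.19G164900 (3.00, 4.03 and 2.72), Glyma.13G123500 (2.83, 3.96 and 2.14) and Glyma.10G037100 (2.58, 3.45 and 2.11) were called against all 3 lines in dry seeds. Glyma.03G163500 was called only against 2MWT-L (3.32). In these dry seeds GBF3 was not called and the MYB-related gene was. The study named both as putative regulators of the storage protein genes. A link between either regulator and these rises was not tested. In 1mlpa 0 of the 4 storage genes tested were called at any stage, and in 3mlpa only Glyma.19G164900 was called, at stage 3 (1.99). For Glyma.01G119600, a late embryogenesis abundant protein gene of the EM6 type and a GBF3 target, the calls were all at stage 2. It was higher in 2mlpa by 1.23, 1.78 and 1.60 at stage 2, all called, and in 1mlpa by 1.42 at that stage (called). The F-box gene Glyma.07G190100, another GBF3 target, was called at stage 2 in 2mlpa (1.34, 1.48 and 1.70) and at stage 3 in 1mlpa (2.00).

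The genes with the pattern most like each regulator were sought over the 24 line and stage groups, among 30185 other genes. For GBF3 the highest correlations were with Glyma.15G256000 (r = 0.988), Glyma.06G125700 (0.985) and Glyma.07G190100 (0.984), of which the first and last are on its list of putative targets. That list was inferred from expression in the MRP groups, which are among these 24, so that this is no independent evidence. For the MYB-related gene they were with Glyma.06G121300 (0.982), Glyma.02G015700 (0.981) and Glyma.16G034600 (0.981). DREB1F was most like Glyma.13G275800 (0.938), Glyma.17G131900 (0.925) and Glyma.11G082100 (0.916). The first of these had mean levels of 0.0629, 9.07 and 1.26 CPM at stages 1, 2 and 3, and so shared the peak in imbibed seeds. ERF3 was most like Glyma.03G006300 (0.904), Glyma.10G192200 (0.901) and Glyma.10G048300 (0.900). The trihelix gene was most like Glyma.06G146000 (0.889), Glyma.06G082500 (0.861) and Glyma.13G273800 (0.860). The points share lines and stages, and the tenth gene on each list was within 0.05 of the first, except for the trihelix gene (0.787), so that the order among the leading genes carries little weight.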

How the data were processed

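The authors trimmed the paired reads with Skewer, aligned them to Wm82.a2.v1 with STAR 2.5.2b and counted them per gene with featureCounts 1.5.1, without strand. The deposited values are raw counts in 2 tables, and no columns of the authors' comparisons were used. Reads that mapped to several places or overlapped several genes were not counted, so that near-identical copies and overlapping genes are undercounted. All 72 libraries were assigned by their labels. Genes whose TMM-normalized counts averaged over 10 in a subset were tested (31363 in MRP, 31682 in Mips, 31307 in Mips-MRP) with edgeR 4.0.16 (quasi-likelihood, TMM, limma 3.58.1, R 4.3.3) in 1 fit per subset with line and stage as the group and no block. SE was taken as the size of the log2 change over the root of F, and the 95% intervals are 1.96 SE to either side. CPM came from 1 TMM scaling of the 71 libraries with over 1000000 counts. Likeness is Pearson's r of mean log2(CPM + 0.5). Depth limits DREB1F most, with at most 18 counts per dry-seed library.

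The genes named are the 5 regulators, the 3 genes most like each, the storage and other target genes listed by the study, the other predicted regulators called against all 3 MRP normal lines, and the mutated genes. The regulators and all lists were chosen with earlier results of these data known. Alternatives were DESeq2 1.42.0, size factors, upper-quartile factors, no filter, filterByExpr, an FDR of 0.05, no fold criterion, fits of the 6 libraries compared, a replicate block and leaving out each library, and for likeness another pseudocount, Spearman's correlation and single libraries. Library totals alone, and the size and upper-quartile factors without the near-empty library, were chosen after seeing the data. The test was checked on simulated data. No sequence is shown.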

Additional observations from a re-analysis of the deposited data

Results flagged for a closer look

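The effect of the 2mlpa genotype differed between dry and imbibed seeds for a pair of regulators, by a test of the difference itself in edgeR. The test reuses the libraries on which the study chose these genes, so that it is a description and no independent evidence. From stage 1 to stage 2 the log2 difference between 2mlpa and the mean of its 3 normal lines changed by -1.42 for ERF3 and by -1.67 for the MYB-related gene. ERF3 in 2mlpa went from a mean of 70.1 ± 37.1 CPM (SD, n = 3) in dry seeds to 60.2 ± 1.12 after imbibition, while 2MWT rose from 25.6 ± 3.63 to 51.4 ± 2.02. The MYB-related gene rose from 12.1 ± 4.45 to 22.4 ± 1.66 CPM in 2mlpa and from 3.82 ± 0.951 to 21.3 ± 0.193 in 2MWT. Among the groups given here, the 2mlpa dry seeds had the largest SD for both genes. Without 2mlpa stage 1 replicate 2 the call of either gene was lost. Groups of 3 libraries are too small for a test of single outlying samples, and none was made.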

How the results depend on the processing

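Of 5 regulators at 3 stages, 3 cases were called against all 3 MRP normal lines, all in dry seeds. The count was 2 with DESeq2, 2 with the replicate block (ERF3 and the MYB-related gene in both) and 1 with library totals alone. It was 2 with fits of the 6 libraries compared, but these were DREB1F and GBF3 at stage 2, and 0 of the 3 dry-seed cases held. Against 1MWT the count was 0, and 1 with DESeq2, an FDR of 0.05, no filter or fits of the 6 libraries compared (DREB1F at stage 2), and 2 without the fold criterion. Against 3MWT it was 0, and 1 with DESeq2, an FDR of 0.05, no filter or fits of 6 libraries. The count beyond the sum of the single mutations was 2, with 1 under DESeq2 or library totals alone and 5 at an FDR of 0.05. Leaving out each library gave 0 to 4 (2mlpa against its normal lines), 0 to 1 (1mlpa), 0 to 1 (3mlpa), 0 to 0 (each single mutation), 41 to 45 (stages, 43 in all), 1 to 3 (beyond the sum), 0 to 3 (effect between stages, 2 in all) and 0 to 1 (1mlpa against 3mlpa). A change of direction occurred for the trihelix gene in 1mlpa from stage 1 to 2, which was -0.25 and became 1.08 with library totals alone. Of the 15 genes most like a regulator, 3 were kept with Spearman's correlation and 6 with each library as a point. Calls of putative targets in the lpa lines were 615 over 15 comparisons, and 549 to 855 under the alternatives. The cause of these changes was not tested. Upper-quartile factors could not be fitted with the near-empty library, whose upper quartile is 0.

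The replicate numbers did not pair the samples: in 2 of 19 comparisons all 3 same-numbered pairs correlated over 0.1 (range -0.40 to 0.57). With the replicate block, 1mlpa against 1MWT had 1 call, the effect between stages 1 and the stages 42.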

Other observations

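Another 10 transcription factors were predicted by the study as regulators in the MRP subset, and 6 of them were called against all 3 normal lines at a stage. Of all tested genes, 0.43%, 0.341% and 0.175% were called in this way at stages 1, 2 and 3. In 2mlpa dry seeds an auxin response factor, Glyma.07G202200, was lower, with log2 fold changes of -3.86 to -3.43, and the zinc finger (C3H) gene Glyma.08G286000 changed by -1.71 to -1.20. The fold changes of Glyma.07G202200 rest on few counts. Its mean dry seed level was 0.0609 CPM in 2mlpa, 0.772 in 2MWT, 0.673 in 2MWT-L and 0.908 in 2MWT-N. The EIL gene Glyma.08G137800, of the ethylene signalling family, was higher by 1.07 to 1.53. In imbibed seeds 3 basic helix-loop-helix genes were lower, with log2 fold changes of -1.79 to -1.74 (Glyma.01G096600), -2.31 to -1.81 (Glyma.07G051500) and -2.10 to -1.84 (Glyma.20G248100). The study chose these genes on the same libraries. In the other subsets, Glyma.07G202200 in dry seeds changed by -0.12 in 1mlpa and by 2.48 in 3mlpa, neither of which was called.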
